A study of Mus musculus with 9 samples.

Results

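Endothelial cells keep their identity through a small set of transcription factors, and 10 of these were examined together: the ETS factors Erg, Fli1, Ets1 and Ets2, the SOX factors Sox7 and Sox18, the blood and vessel factors Tal1 and Gata2, and the hypoxia-inducible factor (HIF) subunits Epas1 (HIF-2α) and Hif1a. They were chosen by name from knowledge of vascular biology and not by a rule on their values, but with earlier results of these data known. 9 of the 10 were measured among 11802 genes, and Tal1 was not analysed here. The RNA came from mouse white adipose tissue by RiboTag capture, in which ribosomes carrying an HA-tagged Rpl22 protein are pulled down with an anti-HA antibody and the RNA bound to them is sequenced. 4 libraries are labelled WT (genotype Pdgfb-iCreERT2:Rpl22HA) and 5 are labelled KO (Pdgfb-iCreERT2:Mfn2iΔEC:Rpl22HA, described by the submitters as lacking the mitochondrial fusion gene Mfn2 in the endothelium). Both groups therefore carry the tamoxifen-inducible Cre under the Pdgfb promoter and the ribosome tag, and differ by the Mfn2 allele. The sources used here give no age, sex, fat depot or induction schedule. Each library is called a biological replicate, with no animal named, so the tests below measure the spread between these libraries.

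ETS factors bind DNA at a GGAA core through a shared ETS domain, and Erg and Fli1 together maintain the expression of junction, adhesion and receptor genes in adult endothelium. Sox7 and Sox18 belong, with Sox17, to the SOXF group, which acts in arterial and lymphatic specification and in vessel integrity. Gata2 binds GATA sites and joins Tal1, Lmo2 and E proteins in complexes shared by blood and endothelial cells, while Epas1 and Hif1a pair with Arnt at the HIF core, written ACGTG with a frequent variant GCGTG, when low oxygen spares them from hydroxylation and destruction. HIF activity is set largely on the protein, so the RNA levels below are not a measure of it.

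Sequences in front of the start sites were searched for both kinds of core motif. The 250 bases before a start are printed for 3 starts of 2 genes. RefSeq windows on GRCm38.p6 were matched for 4 of the 9 genes (Erg, Ets2, Gata2 and Hif1a, 7 windows). Erg is shown because it binds GGAA itself and its alternative starts differ in the number of these cores. Start 1 lies at chr16:95586594-95586843, immediately before the annotated gene, and start 2 at chr16:95530366-95530615, between exons inside the gene, both on the minus strand. The Hif1a window lies at chr12:73907617-73907866 on the plus strand, between exons of the annotated gene. The bases after this start matched no annotated transcript of Hif1a, while those after the Erg starts matched transcripts of Erg. Each is written 5′ to 3′ along the gene, and capitals mark GGAA and its complement TTCC in Erg and the HIF core on either strand in Hif1a.
Erg start 1: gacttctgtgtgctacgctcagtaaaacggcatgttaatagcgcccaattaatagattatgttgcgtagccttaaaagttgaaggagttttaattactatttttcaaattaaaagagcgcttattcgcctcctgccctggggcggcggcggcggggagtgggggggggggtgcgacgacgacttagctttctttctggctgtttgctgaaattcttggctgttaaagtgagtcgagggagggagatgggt
Erg start 2: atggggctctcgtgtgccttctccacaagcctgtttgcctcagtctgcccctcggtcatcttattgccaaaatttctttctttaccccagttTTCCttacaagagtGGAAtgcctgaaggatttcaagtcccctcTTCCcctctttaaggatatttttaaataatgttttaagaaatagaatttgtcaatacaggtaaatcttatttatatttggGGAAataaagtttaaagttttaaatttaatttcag
Hif1a: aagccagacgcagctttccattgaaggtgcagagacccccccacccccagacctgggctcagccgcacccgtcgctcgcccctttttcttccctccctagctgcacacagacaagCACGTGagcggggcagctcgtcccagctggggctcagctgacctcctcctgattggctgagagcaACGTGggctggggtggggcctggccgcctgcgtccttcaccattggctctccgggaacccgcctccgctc
Erg start 1 held 0 GGAA cores, start 2 held 4 and start 3, not printed, held 2. The Hif1a window held 3, the Gata2 windows 3 and 1, and the Ets2 window 1. Of the 32851 RefSeq windows of this length, 93.4% held at least 1 such core and the median was 3. The Hif1a window held 3 matches to ACGTG, counting the palindrome CACGTG on both strands and 1 AACGTG, and 0 matches to GCGTG. The first core was present in 16.6% of all windows and the variant in 28.2%. Windows of Ets2 (2 matches), Gata2 start 2 (1) and Erg start 3 (1) held the variant, and those of Erg, Ets2 and Gata2 held 0 matches to ACGTG. The longer ETS motifs GGAAGT and CCGGAAGT had 0 matches in the 7 windows. They were present in 19.7% and 2.88% of all windows. A match describes letters only, and binding was not measured.

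The libraries differed in ways that touch every value below. The deposited unit is CPM, read counts scaled to a common library total, and reads recovered from it numbered 1034753 to 2501048 in the WT libraries and 1615968 to 3829356 in the KO libraries. Mitochondrial rRNA took 64.2%, 47.0%, 47.1% and 13.6% of the WT reads and 12.6% to 24.8% of the KO reads (exact two-sided permutation p = 0.0476, 0.143 after Benjamini-Hochberg adjustment over 12 library values). The median gene was 0.98 higher on the log2(CPM + 1) scale in the KO libraries (3.46 ± 0.506 against 4.44 ± 0.182, SD, n = 4 and 5), and 94.6% of all genes had a positive difference. Each difference is therefore given on the deposited scale and again relative to the library median, after that median was subtracted from each library. Mfn2 itself stood at 20.2, 55.8, 30.5 and 38.0 CPM in WT libraries 1 to 4 and at 130, 35.4, 57.0, 65.6 and 46.0 CPM in KO libraries 1 to 5. On the deposited scale it was thus not lower in the libraries labelled KO (log2 difference 0.81, limma adjusted p = 0.131). Relative to the library median the difference was -0.16 (95% interval -0.92 to 0.60, limma adjusted p = 0.898). Against the endothelial markers described below it was -0.66 (limma adjusted p = 0.537). Mfn2 passed on none of these scales, so the directions below rest on the labels alone.

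Endothelial RNA was present throughout, beside RNA of other cells. All 29 endothelial markers were measured, and their summed level ran from 1877 to 6084 CPM in WT and from 5544 to 12443 CPM in KO libraries. After subtraction of the library median their mean log2 level was 2.49 in WT and 2.99 in KO libraries, 0.50 apart (exact permutation p = 0.0952, adjusted 0.206). All 24 adipocyte markers were measured as well, summing to between 6341 and 11337 CPM in the WT group and between 12696 and 26619 CPM in the KO group. Fabp4, a fatty acid binding protein also made by adipose capillary endothelium, carried much of the sum, and without it the ranges overlapped (3752 to 6741 against 5191 to 9333 CPM). After subtraction of the library median the adipocyte mean was lower in the KO group (3.18 against 2.74, difference -0.44, exact permutation p = 0.198, adjusted 0.298), and 6 of the 24 genes had a difference above 0. Skeletal muscle markers (12 of 14 measured) summed to 108 to 273 CPM in WT and 523 to 9700 CPM in KO libraries, the highest in KO library 5 (mean relative difference 2.06, exact permutation p = 0.0159, adjusted 0.0952). Fibroblast and preadipocyte markers (12 of 16 measured) summed to 3033 to 10036 CPM in WT and 2675 to 13667 CPM in KO libraries. In WT libraries 1, 2 and 3 and KO library 2 this sum exceeded the endothelial one. Their mean relative to the library median was 2.55 in WT and 1.90 in KO libraries (difference -0.66, exact permutation p = 0.103, adjusted 0.206). In such bulk RNA, fewer endothelial cells and less of a factor per cell cannot be told apart. The part of these other cells in the results was not tested.

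On the deposited scale 5 of the 9 factors rose in the KO libraries: Fli1, Ets1, Ets2, Epas1 and Hif1a (limma, Benjamini-Hochberg adjusted p under 0.05 over all genes). No factor fell. The number that rose was 3 without WT library 1 and 8 without WT library 4. The count over all genes moved as well. With every library 5904 genes had an unadjusted p under 0.05, against 4166 without WT library 1 and 7079 without WT library 4. Of all genes, 32.0% were called higher and 0.203% lower by the same rule, and the median difference was 1.10 for the 9 factors and 1.10 for all genes. Relative to the library median 0 of the 9 passed the test with limma, edgeR or DESeq2, against 0.0339% of genes higher and 0.0763% lower with limma. 2 factors, Fli1 and Ets1, had an unadjusted p under 0.05 there, as had 1378 genes. The median relative difference of the factors was 0.12, the same as that of all genes. When mitochondrial rRNA was removed before rescaling to CPM, limma called 0 of the 9. There 4 of the 9 and 2894 of all genes had an unadjusted p under 0.05.

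**Figure D1:**
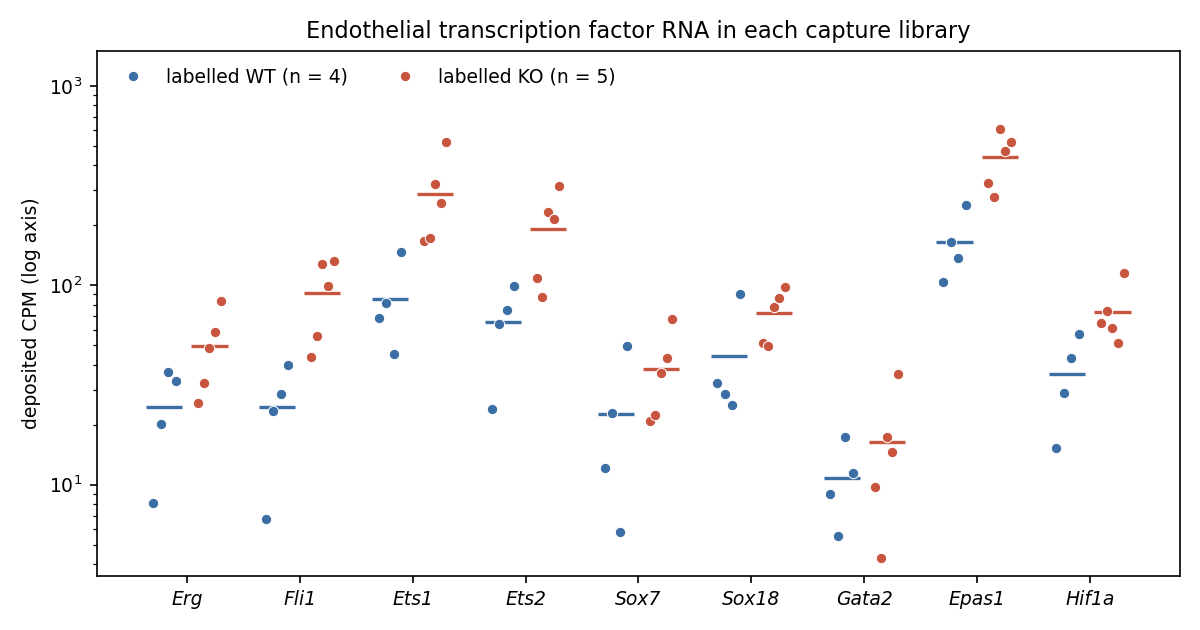
Deposited CPM (log axis) of the 9 factors, 1 point a library, with a line at the group mean (4 libraries labelled WT in blue, 5 labelled KO in red). Fli1, Ets1 and Epas1 have every KO point above every WT point, while the groups overlap for the other 6.

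The factors spanned more than an order of magnitude once CPM was divided by the merged exon length. In the WT libraries Epas1 led with 29.4 ± 11.3 CPM per kb (SD, n = 4), at percentile 92.8 of all genes, and Sox18 followed with 27.2 ± 19.1. Ets2 (11.3 ± 5.42), Ets1 (10.1 ± 5.16), Erg (7.09 ± 3.78), Fli1 (7.05 ± 3.95), Sox7 (6.84 ± 5.83) and Hif1a (6.12 ± 3.05) lay close together. Gata2 was lowest at 2.00 ± 0.920 CPM per kb, percentile 39.3. Among neighbours in this order, all 4 WT libraries placed Sox18 above Ets2 and Hif1a above Gata2, and the other neighbours were not ordered the same way in every library. In the KO libraries Epas1 again led with 78.8 ± 24.7 CPM per kb (SD, n = 5), then Sox18 (44.9 ± 13.2), Ets1 (34.0 ± 17.4), Ets2 (33.2 ± 16.3) and Fli1 (26.3 ± 11.6). Erg (14.4 ± 6.61), Hif1a (12.4 ± 4.16), Sox7 (11.6 ± 5.79) and Gata2 (3.04 ± 2.23) stood below. All 5 KO libraries placed Epas1 above Sox18, Fli1 above Erg and Sox7 above Gata2.

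**Figure D2:**
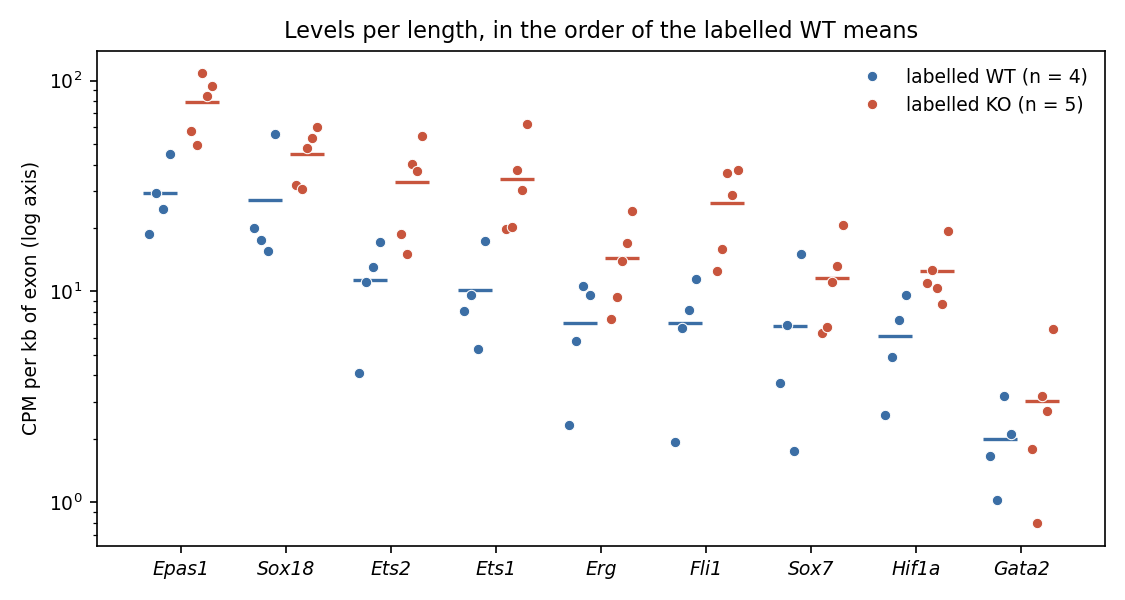
CPM per kb of merged exon (log axis) for the 9 factors, in the order of the WT means, with 1 point a library and a line at each group mean (WT blue, KO red). Epas1 and Sox18 stand at the upper end and Gata2 at the lower end in both groups.

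The 4 ETS genes lie in 2 pairs: Erg and Ets2 are 115 kb apart on chromosome 16 and Fli1 and Ets1 are 93.4 kb apart on chromosome 9. Fli1 (ENSMUSG00000016087, GRCm38 chr9:32422204-32542861, minus strand) had the largest difference of the 9. It was measured at 6.75, 23.3, 28.4 and 39.9 CPM in the WT libraries and at 43.7, 55.4, 127, 99.6 and 132 CPM in the KO libraries. Every KO value lay above every WT value, although KO library 1 exceeded WT library 4 by little. The log2 difference was 1.95 (SE 0.471, limma adjusted p = 0.00675), a 3.88-fold rise on the log2(CPM + 1) scale. Relative to the library median it was 0.98 (95% interval 0.21 to 1.75, limma adjusted p = 0.305), at percentile 92.6 of all genes, and the groups overlapped.

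Erg (ENSMUSG00000040732, chr16:95359169-95586593, minus strand), the closest relative of Fli1 and an ETS factor largely restricted to endothelium, did not pass the test. Its values were 8.10, 20.2, 36.8 and 33.3 CPM in the WT libraries and 25.8, 32.5, 48.3, 58.6 and 83.6 CPM in the KO libraries. KO libraries 1 and 2 lay within the WT range. The log2 difference was 1.06 (SE 0.480, limma adjusted p = 0.0747) on the deposited scale and 0.09 (95% interval -0.70 to 0.88, limma adjusted p = 0.949) relative to the library median. Erg passed without WT library 4 (limma adjusted p = 0.0315) and without KO library 1 (0.0475). These values rest on 18 to 70 reads a library in WT and 68 to 325 in KO.

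Ets1 (ENSMUSG00000032035, chr9:32636221-32757820, plus strand), an ETS factor of endothelial cells and lymphocytes, stood at 68.8, 81.5, 45.2 and 147 CPM in WT and at 167, 172, 320, 258 and 526 CPM in KO libraries. The groups did not overlap, and KO library 5 was highest. It rose by 1.73 on the log2 scale (SE 0.417, limma adjusted p = 0.00675), with a relative difference of 0.76 (95% interval 0.10 to 1.42, limma adjusted p = 0.357). Lymphocytes also transcribe Ets1 and Fli1, and 1 of 16 T and B cell markers was measured, Ighm, between 4.2 and 30.4 CPM in the WT group and between 2.57 and 13.7 CPM in the KO group. Its part in the Ets1 and Fli1 values was not tested. Ets2 (ENSMUSG00000022895, chr16:95702075-95721051, plus strand), a target of Ras and MAP kinase signalling, was measured at 23.9, 64.1, 75.1 and 98.8 CPM in WT and at 109, 87.0, 232, 215 and 316 CPM in KO libraries. Only KO library 2 lay within the WT range. Its log2 difference was 1.55 (SE 0.438, limma adjusted p = 0.0127). Against the library median it was 0.57 (limma adjusted p = 0.527). Without WT library 1 the call on Ets2 was lost (limma adjusted p = 0.0777), while Fli1, Ets1 and Epas1 stayed called whichever library was left out.

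**Figure D3:**
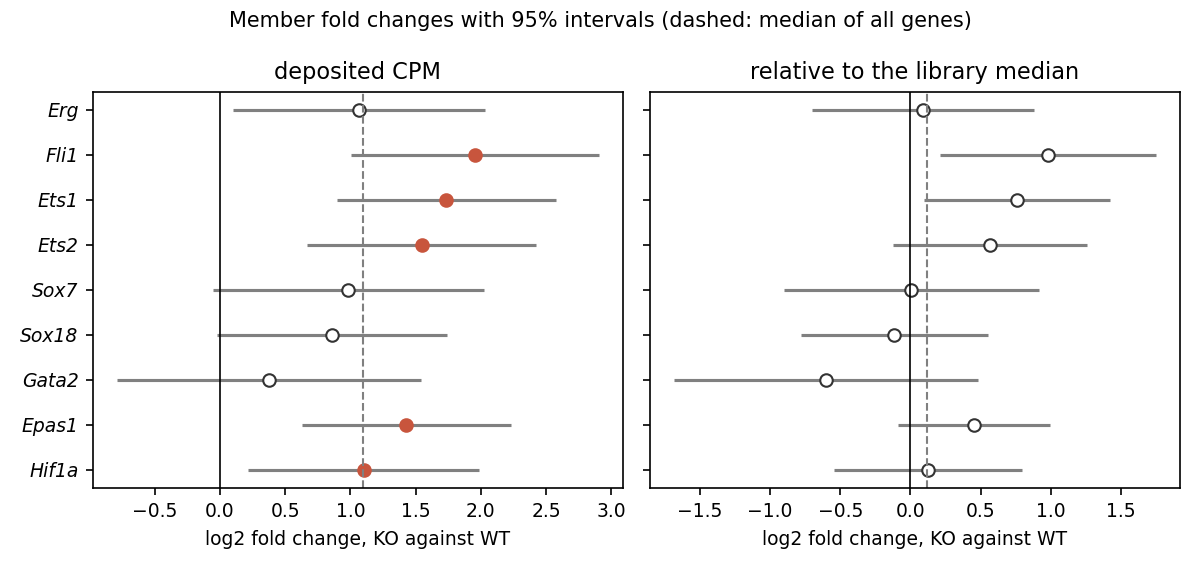
Log2 differences (KO against WT) with 95% intervals from limma, on deposited CPM (left) and relative to the library median (right). Filled points passed an adjusted p of 0.05 and the dashed line is the median of all genes. 5 factors are filled on the left and 0 on the right.

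Set against the endothelial markers in place of the library median, the differences of the factors were smaller or negative. The log2 difference was then 0.48 for Fli1, 0.26 for Ets1 and 0.07 for Ets2, and below 0 for the rest: -0.04 for Epas1, -0.37 for Hif1a, -0.41 for Erg, -0.49 for Sox7, -0.61 for Sox18 and -1.10 for Gata2. The median of all genes was -0.38 on this scale. With limma, 0 of the 9 passed or had an unadjusted p under 0.05. Of all 11802 genes 0 passed on this scale either, and 1707 had an unadjusted p under 0.05. The signs of Erg, Sox7, Epas1 and Hif1a thus depend on the reference chosen.

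Sox18 (ENSMUSG00000046470, chr2:181669836-181671640, minus strand) encodes a SOXF factor needed for lymphatic and blood vessel development. It stood at 32.4, 28.5, 25.2 and 90.3 CPM in WT and at 51.6, 49.7, 77.9, 86.7 and 98.0 CPM in KO libraries. WT library 4 lay above 4 of the 5 KO libraries and the other WT libraries below all of them. The log2 difference of 0.86 did not pass the test (SE 0.438, limma adjusted p = 0.106), and the relative difference was -0.11 (95% interval -0.78 to 0.55, limma adjusted p = 0.921). Sox7 (ENSMUSG00000063060, chr14:63943673-63950732, plus strand), its close relative, was measured at 12.2, 22.9, 5.78 and 49.4 CPM in WT and at 20.9, 22.5, 36.4, 43.3 and 67.9 CPM in KO libraries. WT library 4 was again the highest of its group and the groups overlapped. The difference was 0.98 (SE 0.517, limma adjusted p = 0.117) on the deposited scale and 0.01 (95% interval -0.90 to 0.91) relative to the library median. Both SOX genes passed without WT library 4, at limma adjusted p = 0.0122 for Sox18 and 0.0186 for Sox7 on the deposited scale. Over all genes 7079 then had an unadjusted p under 0.05, against 5904 with every library.

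Gata2 (ENSMUSG00000015053, chr6:88193891-88207032, plus strand) acts in endothelium, blood progenitors, mast cells and preadipocytes. On the deposited scale it had the smallest difference of the 9, and against the endothelial markers the one farthest below 0. Its values were 9.0, 5.54, 17.3 and 11.4 CPM in WT and 9.71, 4.30, 17.3, 14.6 and 36.0 CPM in KO libraries. Apart from KO library 5, the KO values lay between 4.30 and 17.3 CPM and the WT values between 5.54 and 17.3 CPM. The log2 difference was 0.37 (SE 0.578, limma adjusted p = 0.582). Against the library median it was -0.60 (95% interval -1.68 to 0.48, limma adjusted p = 0.697). With 1 library left out these values ran from 0.032 to 0.73 and from -0.89 to -0.32, with 0.032 and -0.89 both reached without KO library 5. From 9 to 140 reads a library lay behind these values, the lowest total of the 9 factors. 2 of 12 mast cell markers were measured, Kit and Hdc, summing to 4.05 to 8.55 CPM in WT and 14.1 to 41.0 CPM in KO libraries. Erythroid and megakaryocyte markers (7 of 13 measured) summed to 111 to 1171 CPM in WT and 161 to 907 CPM in KO libraries. Relative to the library median, the marker mean differed by 0.74 for mast cells and -0.50 for erythroid cells and megakaryocytes (KO against WT). For fibroblasts and preadipocytes it differed by -0.66. The part of these cells in the Gata2 values was not tested.

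Epas1 (ENSMUSG00000024140, chr17:86753700-86833410, plus strand), the HIF subunit that endothelium expresses most, was the most abundant of the 9 and had the tightest estimate. Its values were 104, 164, 138 and 252 CPM in WT and 324, 276, 606, 470 and 526 CPM in KO libraries. The groups did not overlap on the deposited scale, nor after the library median was subtracted, where it was the only factor of which this held. Groups separated upward in this way for 3 of 9 factors on the deposited scale, against 18.7% of all genes (0.0254% separated downward), and for 1 of 9 relative to the library median, against 2.07% (1.74% downward). The log2 difference was 1.43 (SE 0.399, limma adjusted p = 0.0121). Against the library median it was 0.45 (95% interval -0.09 to 1.00, limma adjusted p = 0.523). Hif1a (ENSMUSG00000021109, chr12:73901375-73947530, plus strand), the widely expressed HIF subunit, was measured at 15.3, 28.9, 43.1 and 57.0 CPM in WT and at 65.0, 74.5, 61.3, 51.5 and 115 CPM in KO libraries. KO library 4 lay below WT library 4 and the other KO libraries above all WT libraries. The difference was 1.10 (SE 0.439, limma adjusted p = 0.0491), just past the threshold. Against the library median it was 0.12 (95% interval -0.54 to 0.79, limma adjusted p = 0.915). Leaving out any 1 library other than WT library 4 ended the call on Hif1a (limma adjusted p = 0.0564 to 0.188).

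Some neighbouring annotation bears on these counts. The antisense genes Gm27201, Gm27240 and Gm15283 overlap Fli1, Ets1 and Hif1a, and the sources used here give no strand setting, so reads from either strand cannot be told apart. On the same strand, the protein-coding Gm49321 overlaps Hif1a, an snRNA gene and unconfirmed transcripts overlap Fli1, and an unconfirmed transcript overlaps Epas1, and a strand setting would not separate these.

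Ratios between 2 factors of the same library do not depend on how that library was scaled, and all 36 pairs were compared. In 2 pairs the groups did not overlap, and these were singled out after their values were seen. The ratio of Fli1 to Erg, on CPM per kb, was 0.83, 1.15, 0.767 and 1.19 in WT and 1.68, 1.70, 2.62, 1.69 and 1.57 in KO libraries. Fli1 and Erg were thus about level in the WT libraries, and Fli1 exceeded Erg in each of the 5 KO libraries. The mean log2 ratio differed by 0.91 (exact two-sided permutation p = 0.00794, the smallest this design allows, and 0.143 after adjustment over the 36 pairs). Of the other genes in the table, 1.53% had a ratio to Erg that was higher in every KO library than in every WT library and 0.254% one that was lower. In reads, Fli1 made up 45.5% (95% Wilson interval 29.8% to 62.0%, 33 reads), 53.6% (110 reads), 43.5% (124 reads) and 54.5% (77 reads) of the 2 genes' sum in WT libraries. In KO libraries it made up 62.9% (229 reads), 63.0% (184 reads), 72.5% (487 reads), 63.0% (270 reads) and 61.2% (95% Wilson interval 57.9% to 64.5%, 838 reads). These intervals cover counting error only.

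The other such pair was Sox18 and Ets1. Sox18 stood at 2.46, 1.83, 2.92 and 3.21 times Ets1 per kb in WT and at 1.62, 1.51, 1.27, 1.76 and 0.975 times in KO libraries. All WT ratios were above all KO ratios, by a narrow margin between WT library 2 and KO library 4. The mean log2 ratio differed by -0.87 (exact two-sided permutation p = 0.00794, 0.143 after adjustment over the 36 pairs). Of the other genes in the table, 5.31% had a ratio to Ets1 that was lower in every KO library than in every WT library and 0.347% one that was higher.

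**Figure D4:**
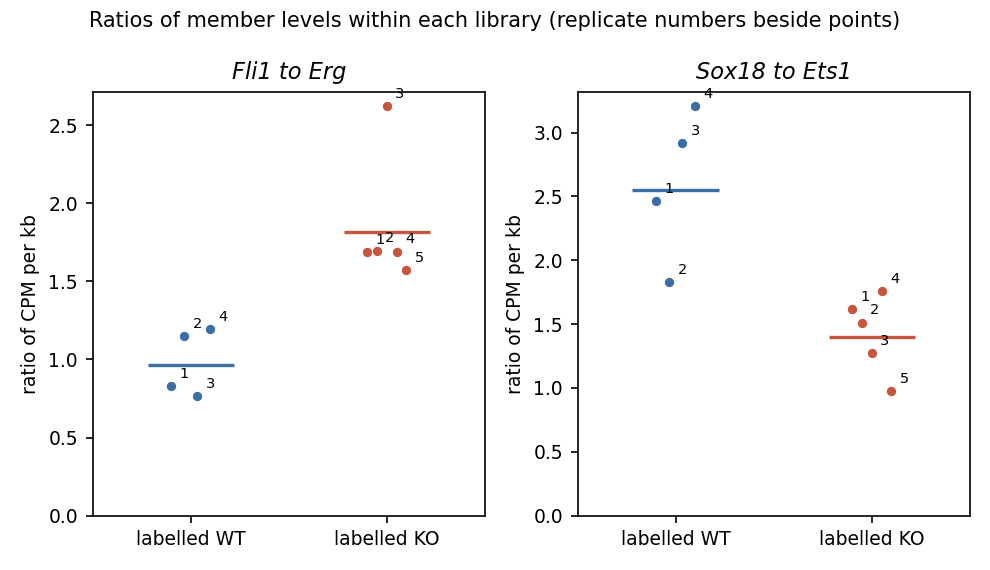
Ratios of CPM per kb within each library (linear axes from 0) for Fli1 to Erg (left) and Sox18 to Ets1 (right), with replicate numbers beside the points and a line at each group geometric mean. Fli1 to Erg lies between 0.767 and 1.19 in WT and between 1.57 and 2.62 in KO libraries, and Sox18 to Ets1 lies lower in KO than in WT libraries.

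The factors did not vary as 1 block. Over the 9 libraries, deviations from the group means of the relative values had a Pearson correlation from -0.33 (Epas1 and Hif1a) to 0.92 (Fli1 and Ets2) across the 36 pairs, with a median of 0.33. Erg went with both Fli1 (0.87) and Ets2 (0.87). These points share libraries and library depth, and the correlations are a description. Of 5229 genes with a mean of at least 20 CPM, the ones closest by this measure were Itga5 (0.968), Mob1a and Fis1 for Fli1, Efcab14 (0.963), Rtcb and Spred2 for Erg, Sdc3 (0.983), Clic4 and Kpna4 for Ets1, and Ptprm (0.975), Tmx3 and Rac1 for Ets2. For Sox7 they were Ndufa5 (0.989), Lsm4 and Rgs12, and for Sox18 Spns2 (0.959), Pold1 and Ifit1. For Epas1 they were Serinc1 (0.956), Mmrn2, an endothelial matrix glycoprotein, and Bmpr2, a BMP receptor, and for Hif1a Hnrnpa1 (0.938), Cwc15 and Hipk3. For Gata2 they were Aida (0.953), Ndufb10 and Fbxw11 among 5230 genes.

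The other members of both DNA-binding families were measured in part. Of the other ETS genes, 10 of 22 were measured and 3 rose on the deposited scale (Etv6, Elk3 and Erf), where 32.0% of all genes did, with a median relative difference of -0.07 against 0.12 for all genes. The most abundant were Elf2 (log2 difference 0.85, limma adjusted p = 0.0974), Elk4 (0.90, limma adjusted p = 0.11) and Gabpa (0.92, limma adjusted p = 0.0709). Their relative differences were -0.13, -0.08 and -0.06. Gabpa, a housekeeping ETS factor that acts on nuclear-encoded mitochondrial genes, did not pass although its libraries were close together, with 38.3 ± 3.45 CPM in the WT group and 73.1 ± 4.07 CPM in the KO group (SD, n = 4 and 5). Of the other SOX genes, 7 of 13 were measured and 3 rose (Sox4, Sox12 and Sox17; 32.0% of all genes), with a median relative difference of 0.04. Sox17, the SOXF member beside Sox7 and Sox18, averaged 35.5 ± 27.5 CPM over the WT libraries and 93.8 ± 29.5 CPM over the KO libraries (log2 difference 1.6, limma adjusted p = 0.0123). Sox4 had a difference of 1.39 (limma adjusted p = 0.0438) and Sox13 one of 1.01 (limma adjusted p = 0.0583).

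Partners of the TAL1 and GATA complexes were measured for 11 of 16 genes, of which 3 rose (Tcf3, Tcf4 and Zfpm1), a share no higher than the 32.0% of all genes. Tcf4, an E protein that pairs with TAL1, stood at 46.8, 58.5, 58.3 and 105 CPM in WT and at 145, 123, 171, 164 and 276 CPM in KO libraries (log2 difference 1.39, limma adjusted p = 0.0137), without overlap. Zfpm1, the GATA cofactor FOG1, had a difference of 1.05 (limma adjusted p = 0.0495) and Lmo2, the bridging protein of the complex, one of 0.90 (limma adjusted p = 0.0783). The relative difference of Lmo2 was -0.08. The list's median relative difference was -0.17. Of the HIF partners and regulators, 13 of 17 were measured and 4 rose: Arnt, the oxygen-sensing hydroxylases Egln1 and Egln2, and Hif1an. This share is close to the 32.0% of all genes. Arnt was measured at 3.15, 38.4, 41.0 and 37.1 CPM in WT and at 78.6, 66.4, 69.6, 63.2 and 98.3 CPM in KO libraries (log2 difference 1.74, limma adjusted p = 0.0139). WT library 1 stood far below the rest, and the groups did not overlap. The coactivators Crebbp (0.45, limma adjusted p = 0.334) and Ep300 (0.68, limma adjusted p = 0.164) did not pass. Their relative differences were -0.53 and -0.30. This list had a median relative difference of 0.33.

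Among HIF target genes, 25 of 30 were measured and 12 rose on the deposited scale, beside 32.0% of all genes. Those called were glycolytic and mitochondrial-switch genes (Pgk1, Ldha, Aldoa, Pdk1), the mitophagy genes Bnip3 and Bnip3l, and P4ha1, Kdm3a, Hmox1, Angptl4, Bhlhe40 and Ddit4. Several known targets did not pass, among them Slc2a1, Hk2, Edn1 and Vegfa. Ddit4, the stress-induced inhibitor of mTORC1 also known as REDD1, was the only gene of these lists that limma called relative to the library median, where DESeq2 called Angptl4 and Vcam1 as well and edgeR called none (7 list entries had an unadjusted p under 0.05). It stood at 36.0, 48.3, 13.1 and 32.3 CPM in WT and at 170, 190, 330, 237 and 300 CPM in KO libraries, without overlap. Its log2 difference was 2.97 (SE 0.415, limma adjusted p = 2.65e-05) on the deposited scale and 1.99 (SE 0.357, limma adjusted p = 0.0403) relative to the library median. The relative call was ended by leaving out WT library 1, 3 or 4 or KO library 2, 3 or 4 (limma adjusted p from 0.0511 to 0.147). It did not pass with edgeR (adjusted p = 0.0767) and passed with DESeq2 (adjusted p = 0.000864). As background, Ddit4 is also induced by other stresses and by glucocorticoids.

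Vegfa, the angiogenic ligand that adipocytes and other cells release, was uneven, at 170, 301, 314 and 426 CPM in WT and at 1228, 666, 171, 284 and 137 CPM in KO libraries. KO libraries 1 and 2 were high and the other KO libraries lay within or below the WT range (log2 difference 0.29, limma adjusted p = 0.594). The relative difference of Vegfa was -0.68 (limma adjusted p = 0.624). Any link of Epas1 or Hif1a RNA to Vegfa was not tested. Aldoa had a difference of 1.52 (limma adjusted p = 0.01) and Pfkfb3, an activator of glycolysis, one of 0.47 (limma adjusted p = 0.324). The relative difference of Pfkfb3 was -0.51. Adipocytes and skeletal muscle also express the glycolytic targets, and the deposited marker sums of both were higher in the KO libraries. The adipocyte sums without Fabp4 overlapped. Relative to the library median the adipocyte mean was lower in the KO libraries (difference -0.44) and the skeletal muscle mean higher (2.06). The part of these cells in the values of the targets was not tested. The median relative difference of the HIF targets was 0.17.

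Targets of ETS and SOXF factors are for the most part the endothelial surface and junction genes themselves, and many of them are among the endothelial markers. Of 21 ETS targets all were measured and 18 rose on the deposited scale, on which 32.0% of all genes rose, among them Pecam1 (184 ± 122 against 475 ± 168 CPM, log2 difference 1.48, limma adjusted p = 0.0125). Kdr, the VEGF receptor, stood at 194, 315, 277 and 653 CPM in WT and at 763, 590, 1798, 1275 and 1511 CPM in KO libraries, with overlap through WT library 4 (1.75, limma adjusted p = 0.00753). Vwf did not pass (1.07, limma adjusted p = 0.0548). The median relative difference of the ETS targets was 0.40, and 20 of 21 lay above 0, as did 57.9% of all genes. Of the 29 endothelial markers 25 rose on the deposited scale. Relative to the library median 28 of these markers lay above 0, with a median of 0.50. Set against the endothelial markers, the difference was 0.28 for Kdr, 0.01 for Pecam1 and -0.40 for Vwf. Of 12 SOXF targets 10 were measured and all 10 rose (32.0% of all genes), with a median relative difference of 0.63. They include the adherens junction gene Cdh5 (1.32, limma adjusted p = 0.0196), the tight junction gene Cldn5 (1.26, limma adjusted p = 0.0231) and the arterial receptor Notch4 (1.80, limma adjusted p = 0.00675). Set against the endothelial markers, these 3 stood at -0.15, -0.21 and 0.33. Cdh5, Cldn5, Dll4 and Robo4 stand in both lists. None of these targets passed relative to the library median with limma, where 3 in each list had an unadjusted p under 0.05, or with edgeR, and DESeq2 called 1, Vcam1.

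Of the other endothelial transcription factors, 23 of 26 were measured and 14 rose, beside 32.0% of all genes. Klf2, the flow-responsive factor, had a difference of 1.73 (limma adjusted p = 0.00675) at 43.6, 140, 54.1 and 154 CPM in WT and 253, 222, 472, 290 and 233 CPM in KO libraries, without overlap. Tcf15, a factor of heart and adipose microvessels (0.80, limma adjusted p = 0.12), and Id1 (1.02, limma adjusted p = 0.0626) did not pass. The relative difference of Tcf15 was -0.18. The list's median relative difference was 0.25. No gene of any of these lists fell. Without WT library 1 the number called higher was 5 rather than 18 for ETS targets, 4 rather than 10 for SOXF targets, 6 rather than 12 for HIF targets and 5 rather than 14 for the other endothelial factors. Without WT library 3, KO library 3 or KO library 5 the ETS targets gave 8, 9 and 10, the SOXF targets 8, 6 and 6, the HIF targets 4, 6 and 6, and the other endothelial factors 7, 5 and 5 (7 also without KO library 4). With 1 library left out, the number called ranged from 0 to 6 for the other ETS genes, 0 to 4 for the other SOX genes, 1 to 6 for the TAL1 and GATA partners and 2 to 7 for the HIF partners, highest without WT library 4 in each (for the SOX genes also without KO library 2). On the deposited scale 5904 of all genes had an unadjusted p under 0.05 with every library. This number was 4166 without WT library 1, 4789 without WT library 3 and 7079 without WT library 4. It was 4858 without KO library 3, 4945 without KO library 4 and 4896 without KO library 5. When mitochondrial rRNA was removed before rescaling, limma called 1 HIF target and 0 genes of each of the other 7 lists. There 50 of all list entries and 2894 of all genes had an unadjusted p under 0.05.

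**Figure D5:**
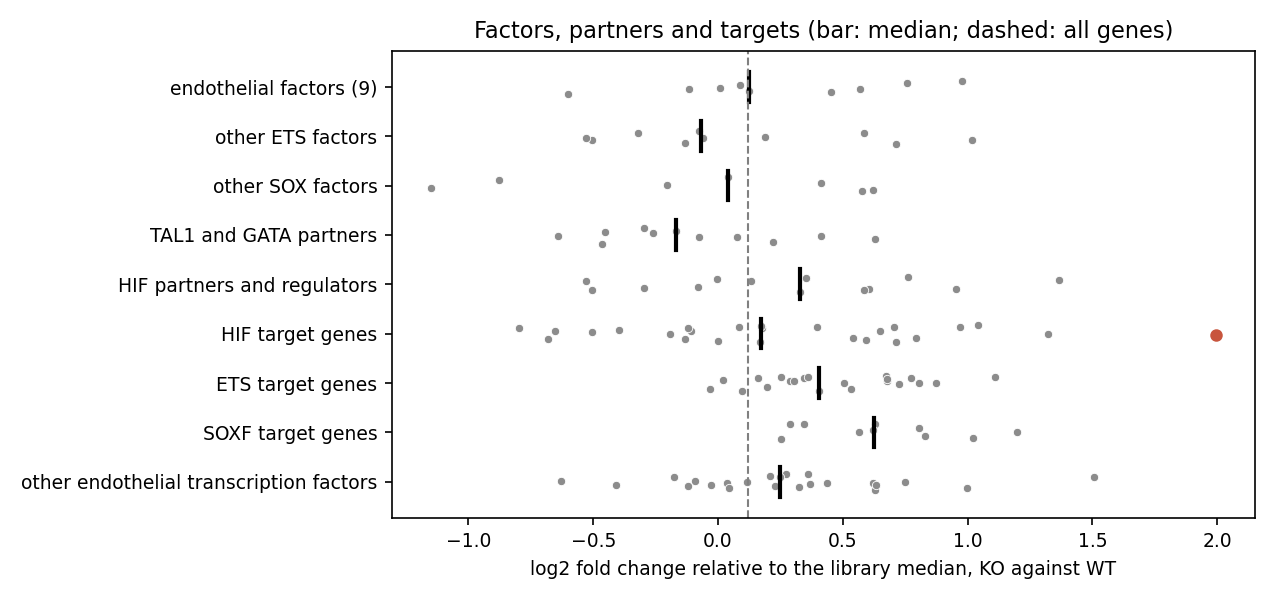
Log2 differences relative to the library median (KO against WT) for the 9 factors and the 8 lists, 1 point a gene, with a bar at the list median and a dashed line at the median of all genes. Ddit4, in red, is the only gene called by limma. The SOXF targets all lie above 0, and the TAL1 and GATA partners have the lowest median.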

How the data were processed

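Ribosome-bound RNA from 9 libraries (50 to 100 mg of tissue, 2 to 5 ng of RNA, per the labels' protocols) was deposited as 1 table of CPM (counts that the authors divided by the size of their library), covering 11802 genes. Per the submitters' processing notes, the tools used, on GRCm38, were HISAT2 2.1.0, FastQC 0.11.9, R 4.0.2, edgeR 3.32.0 and Trimmomatic 0.39, with no role stated. The sources used here do not give the counter, strand setting or low-count filter. Since 1 read is worth a fixed CPM in each library, whole reads were recovered from the deposited CPM (at least 99.98% of nonzero values within 0.1 read), which gave the depths. Gene symbols, positions and exon lengths came from GENCODE M21 on GRCm38 (11797 identifiers matched). Differences were fitted with limma 3.58.1 with an intensity trend (R 4.3.3) on log2(CPM + 1), all libraries and no covariate, with Benjamini-Hochberg adjustment over all genes at 0.05; a mean CPM of at least 1 removed 0 genes. The second scale subtracts each library's median. A fold on the log2(CPM + 1) scale understates the change of low genes. edgeR 4.0.16 and DESeq2 1.42.0 on the recovered reads, other pseudocounts, scalings, covariates and left-out libraries were alternatives. The scripts were tested on counts simulated with known changes, in which 100 of 11802 genes changed 2-fold and 100 changed 4-fold. Every gene had the same assumed spread, and the shift of most genes between the groups was not simulated. The shares recovered below may therefore not hold for these data on the deposited scale. At an adjusted p of 0.05 limma recovered 0% of the 2-fold changes on either scale. Of the 4-fold changes it recovered 25% on the deposited scale and 24% on the relative scale. On the same 4-fold changes edgeR with TMM recovered 17% and DESeq2 38%. A gene that did not pass may therefore still differ. Named genes were all factors, the 3 most abundant genes of each list not yet named, and every list gene called on the relative scale; the other genes named only as called or not called, and the overlapping antisense genes, were added after their values were seen. The factors and lists were chosen with earlier results of these data known.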

Additional observations from a re-analysis of the deposited data

Results flagged for a closer look

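Of 36 groups of library values examined for a value standing apart from its group (the 9 factors in each label group, on both scales), 1 was picked out: Sox18 in WT library 4, at 90.3 CPM against 25.2 to 32.4 CPM in the other WT libraries. Its gap to the next value took a share of 0.890 of the group's range, above the critical value. Chance picks out about 1 in 20 such groups. WT library 4 also had the smallest number of reads (1034753), the lowest mitochondrial rRNA share of the WT libraries (13.6%) and the highest summed endothelial markers of its group (6084 CPM). Their part in the Sox18 value was not tested.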

How the results depend on the processing

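The number of factors called higher on the deposited scale, 5, was 0 with quantile normalisation, centring on the endothelial markers, mitochondrial rRNA removed, an endothelial, adipocyte or mitochondrial rRNA covariate, edgeR with TMM, or DESeq2, and 8 with array weights. Leaving out 1 library gave 3 (without WT library 1) to 8 (without WT library 4). Relative to the library median 0 were called in every setting except edgeR with library totals, which gave 4 and undoes that scaling. DESeq2 gave no adjusted p for Gata2. Over all genes, 3780 called higher on the deposited scale became 4 with quantile normalisation, 0 centred on the endothelial markers, 21 without mitochondrial rRNA, 0, 5 and 19 with the endothelial, adipocyte and mitochondrial rRNA covariates, 1 with TMM, 2104 with library totals and 31 with DESeq2 (leave-one-out 1094 to 5916). The 24 called lower became 5, 0, 4, 0, 0, 2, 4 and 124 in those settings without library totals, 10 without trend and 12 without WT library 4 and KO library 5 (leave-one-out 7 to 23). On the relative scale the 4 called higher became 2 at pseudocount 0.5, 0 centred on endothelial markers, 0 without trend, 11 with array weights, 0, 2 and 0 with the 3 covariates, 1 without WT library 4 and KO library 5, 1 with TMM, 2104 with library totals and 31 with DESeq2 (leave-one-out 0 to 21). The 9 called lower became 2 at pseudocount 0.5, 2 at a mean CPM of at least 5, 5 with quantile normalisation, 0 centred on endothelial markers, 0 without trend, 52 with array weights, 0 with the endothelial and 0 with the mitochondrial rRNA covariate, 5 without WT library 4 and KO library 5, 4 with TMM, 19 with library totals and 124 with DESeq2 (leave-one-out 0 to 106). Beside the 0 counts, 1707 genes centred on the endothelial markers and 1009 with the endothelial covariate had an unadjusted p under 0.05.

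The labels' replicate numbers recur in both groups, but same-numbered libraries did not deviate together (correlations 0.029, -0.022, -0.04 and 0.039). Of the 4 WT libraries 1 correlated best with its own number. No sign of pairing was thus seen, but so few libraries cannot exclude it. The main fits treat the libraries as unpaired. With a replicate block, 4 factors were called on the deposited scale (Hif1a was lost, limma adjusted p = 0.133), 1932 genes higher and 8 lower, and on the relative scale 8 higher and 30 lower; the relative difference of Erg was -0.075 and of Sox7 -0.18.

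Signs changed as follows, and the causes were not tested. On the deposited scale with the endothelial covariate: Erg -0.19, Ets2 -0.10, Sox7 -0.99, Sox18 -0.42, Gata2 -0.66, Elf2 -0.23, Elk4 -0.97, Sox13 -0.13, Sox4 -0.28, Zfpm1 -0.24, Lmo2 -0.014, Vwf -0.47, Pecam1 -0.068, Cdh5 -0.062, Cldn5 -0.14, Tcf15 -0.83 and Id1 -0.65. With the mitochondrial rRNA covariate: Sox7 -0.21, Sox18 -0.044, Gata2 -0.067, Elk4 -0.18, Vegfa -0.038, Tcf15 -0.43 and Id1 -0.00688. With mitochondrial rRNA removed: Gata2 -0.18, Crebbp -0.15, Vegfa -0.30 and Pfkfb3 -0.12. Vegfa was -0.085 with array weights and -0.20 with the adipocyte covariate, where Pfkfb3 was -0.18, and -0.15 to 0.63 with 1 library left out and 0.82 without WT library 4 and KO library 5. On the relative scale, centred on endothelial markers: Erg -0.41, Sox7 -0.49, Epas1 -0.044 and Hif1a -0.37. With the endothelial covariate Erg was -0.14 and Sox7 -0.81, with the adipocyte covariate -0.11 and -0.43, with the mitochondrial rRNA covariate -0.21 and -0.57 (Hif1a -0.076), with TMM -0.052 and -0.16, and with DESeq2 -0.044 and -0.16. Sox7 was -0.00239 without mitochondrial rRNA, Erg -0.08 and Sox18 0.01 without WT library 4 and KO library 5, and Sox18 0.027 at pseudocount 5. With 1 library left out the relative values spanned -0.15 to 0.37 for Erg, -0.44 to 0.29 for Sox7, -0.28 to 0.079 for Sox18 and -0.022 to 0.28 for Hif1a. Ratio settings were chosen after seeing the data: the Fli1 to Erg difference was 0.78 to 1.01 with 1 library left out. Depth limits Gata2 most, at 9 to 140 reads a library.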
